A study of Rattus norvegicus with 3 samples.

Results

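Skeletal muscle sarcomere and metabolism genes are described here in RNA from the rat spinal cord, a tissue that contains no skeletal muscle fibers of its own. The set was chosen by name with earlier results of these data in view. It holds 40 genes of the contractile filaments, the Z-disc, calcium handling, energy metabolism and the membrane and nuclear lamina of the muscle fiber. Of the 40 genes, 27 have a row in the authors' table of 12771 entries (12758 gene symbols), and 13 have none. The genes without a row are MYH7, MYL2, MYBPC1, MYBPC2, NEB, ACTN2, ACTN3, TTN, TCAP, XIRP2, RYR1, ATP2A1 and CAPN3, and none of them is listed under a rat synonym either. A missing row gives no level, so these 13 are not treated as absent from the RNA.

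The RNA came from female Sprague Dawley rats of 3 months. Control animals (No-SCI) had a laminectomy at T9, and injured animals (SCI) had the same laminectomy followed by a contusion from a computer-driven impactor, so the laminectomy is common to both groups. After 24 h a second laminectomy at T8 gave access to about 2 mm of cord just rostral to the lesion, which was digested in the cold with a bacterial protease and spun to remove cells, and RNA of the supernatant was sequenced. By the labels there were 2 libraries of No-SCI and 1 of SCI, while the methods speak of 2 animals in each condition. The authors' table gives 1 FPKM value (a fragment count corrected for transcript length and library size) for each group and entry and none for a library. No SD, confidence interval or test could be made from it, the number of reads behind a value is not known from it, and the injury cannot be told apart from any other difference between these few libraries. All statements of higher or lower are therefore comparisons of 2 group values, read against the same comparison over all symbols. Fewer cells of a type and less RNA per cell also cannot be told apart in such bulk data.

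A muscle fiber contracts when myosin heavy chains of the thick filament pull on actin of the thin filament, and calcium released from the sarcoplasmic reticulum switches this on through the troponin complex. Vertebrates keep separate genes for many of these proteins in fast and slow fibers, so that the mixture of isoforms reports the type of fiber. Slow isoforms of several families are also those of the heart. Muscle-specific enzymes such as creatine kinase M have close relatives that serve the brain and other tissues.

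The scale of the values bears on these genes, because many of them lie low. No value in the table is below 1, and 18 No-SCI and 37 SCI entries are exactly 1. MYH1 and MYH2 carry the same 2 values, 2.71 FPKM in No-SCI and 1.18 FPKM in SCI. MYH4 is listed at 1.85 and 1.09 FPKM. Once 1 was subtracted, the value of MYH1 was 2 times that of MYH4 in each group, to the digits given. Subtracting 1 also raised the share of values between 1 and 10 FPKM that have at most 6 digits, from 66.1% to 79% in No-SCI and from 62.9% to 76.1% in SCI. The table therefore behaves as if 1 had been added to every value, and ratios are given as deposited, with the ratio after subtracting 1 beside those that it moves most. Among all symbols, 29 share both values with another symbol. The 3 myosin heavy chain genes, which lie next to each other in the order Myh2, Myh1 and Myh4 on the rat reference, thus count as 1 measurement. After subtracting 1, 16 of the 27 genes have values of more than 6 digits in at least 1 group, and where such a value is a sum over several entries its level relative to another gene depends on how many were summed.

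Of the 27 listed genes, 26 were lower in SCI than in No-SCI, as were 56.4% of all symbols, and 1, MLIP, was higher. At least 2-fold lower were 19 of them (70.4%), against 12.1% of all symbols, and 1 (3.70%) was at least 2-fold higher, against 7.93% of all symbols. At least 4-fold lower were 11, against 1.21% of all symbols, and at least 8-fold lower were 7, against 0.172%. The choice of the genes used this same contrast, so these counts describe the set and are not evidence for it. They include MYH1, MYH2 and MYH4, which count as 1 measurement. With MYH2 and MYH4 left out, 18 of 25 genes were at least 2-fold lower. Over the 27 genes the median of the log2 ratio (SCI over No-SCI) was −1.52, and over all symbols −0.12. After subtracting 1 it was −3.24 over the 25 genes with a value above 1 in both groups, and −0.13 over all symbols. The median level was 12.9 FPKM in No-SCI and 3.50 FPKM in SCI, whereas that of all symbols was 17.2 and 15.6 FPKM. In No-SCI 17 of the genes stood at 10 FPKM or more, and in SCI 7 did, against 8059 and 7778 of the 12758 symbols. The genes closest to the 2-fold line were MYH1 and MYH2, just past it with log2 ratios of −1.20, and TRDN (−0.96) and TNNT1 (−0.85), which did not reach it.

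**Figure D1:**
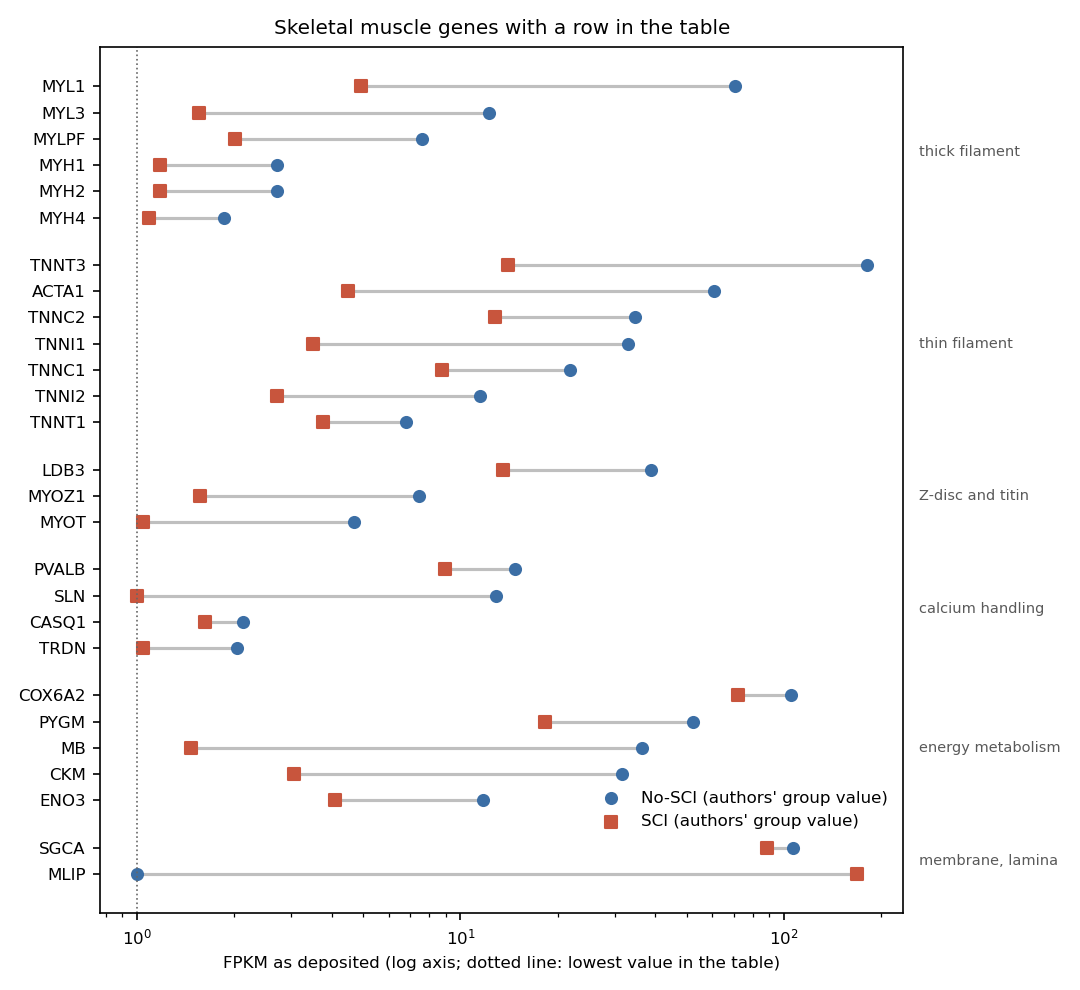
FPKM as deposited (log axis) of the 27 listed genes in No-SCI (circles) and SCI (squares), 1 authors' group value each, ordered by role and by No-SCI level, with the lowest value of the table, 1, as a dotted line. The SCI value lies to the left for 26 genes, from TNNT3 (180 to 14.1 FPKM) down to MYH4 (1.85 to 1.09 FPKM), and to the right for MLIP.

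The promoters of the genes with the greatest differences are shown because they let a reader see what these genes share beyond the measurements. RefSeq sequences of rat assembly GRCr8 were used, and 33 of the 40 genes have promoter windows there. In each, the 250 bases before the transcription start were searched on both strands for the E-box (CANNTG) that basic helix-loop-helix factors such as MyoD bind, for its myogenic form (CAGCTG, which the first pattern also matches), for the MCAT element (CATTCC), for the TATA box (TATAAA), and for the MEF2 site and the CArG box. The MEF2 site was present in 8 of the 33 genes (24.2%) and in 2.96% of all 33469 promoter windows. The CArG box, to which serum response factor binds, was in 4 genes (12.1%) and 1.5% of all windows. The myogenic E-box was in 11 genes (33.3%) and 12.0% of all windows, the general E-box in 28 (84.8%) and 65.5%. The TATA box was in 9 genes (27.3%) and 12.9% of all windows, and the MCAT element in 6 (18.2%) and 12.1%. A gene was counted when any of its windows held a match, whereas the other share is over single windows. A gene with several starts had more chances of a match, so the gene shares and window shares are not like measures. Below are 150 bases before a start, 5′ to 3′ on the strand of the gene. The 5 genes with the lowest log2 ratios among those with a sequence come first, followed by the 3 myosin heavy chain genes. For each gene the window with the lowest coordinate was used, except for Myl1, where that with the highest was. A match counted above can therefore lie outside the stretch shown. Capitals mark matches to any of these patterns other than the general E-box.
Mb (chr7:110647743-110647892, minus strand): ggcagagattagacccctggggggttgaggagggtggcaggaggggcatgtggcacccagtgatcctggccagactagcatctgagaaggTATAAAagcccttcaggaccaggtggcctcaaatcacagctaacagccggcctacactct
Myl1 (chr9:75907697-75907846, minus strand): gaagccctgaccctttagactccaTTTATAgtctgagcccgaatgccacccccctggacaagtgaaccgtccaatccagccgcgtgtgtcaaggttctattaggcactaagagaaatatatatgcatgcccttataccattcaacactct
Acta1 (chr19:68784195-68784344, minus strand): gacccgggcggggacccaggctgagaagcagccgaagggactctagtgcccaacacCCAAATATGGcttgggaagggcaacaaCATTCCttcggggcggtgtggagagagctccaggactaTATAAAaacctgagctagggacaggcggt
Ckm (chr1:88189311-88189460, plus strand): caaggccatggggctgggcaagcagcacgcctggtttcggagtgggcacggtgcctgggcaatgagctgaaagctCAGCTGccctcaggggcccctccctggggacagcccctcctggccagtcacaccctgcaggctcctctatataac
Tnni1 (chr13:49781379-49781528, plus strand): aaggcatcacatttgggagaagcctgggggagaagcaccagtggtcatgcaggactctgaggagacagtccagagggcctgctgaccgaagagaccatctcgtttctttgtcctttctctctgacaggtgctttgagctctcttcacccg
Myh1 (chr10:52384762-52384911, plus strand): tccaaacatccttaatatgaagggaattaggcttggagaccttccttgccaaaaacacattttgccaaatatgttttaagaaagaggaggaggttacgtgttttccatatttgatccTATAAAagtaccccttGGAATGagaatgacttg
Myh2 (chr10:52355589-52355738, plus strand): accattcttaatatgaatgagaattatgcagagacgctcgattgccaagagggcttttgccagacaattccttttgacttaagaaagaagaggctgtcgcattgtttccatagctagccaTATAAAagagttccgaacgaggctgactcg
Myh4 (chr10:52421998-52422147, plus strand): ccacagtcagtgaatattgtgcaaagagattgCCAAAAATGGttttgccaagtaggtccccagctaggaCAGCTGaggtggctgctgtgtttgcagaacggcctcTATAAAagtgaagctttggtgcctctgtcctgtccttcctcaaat
Acta1 has a CArG box, an MCAT element and a TATA box in this stretch, Myh4 a CArG box, a myogenic E-box and a TATA box, and Tnni1 none of the patterns that capitals mark, although the general E-box occurs in its searched window. The match in Myl1 is to the TATA box on the opposite strand. Myh1, Myh2 and Myh4 each have a TATA box, although their shared values mean that the data do not separate them. A match is a description of letters and not a binding site.

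The thick filament is built of myosin heavy chains with 2 kinds of light chain on each head, and myosin-binding protein C runs across it. Of its 10 genes 6 are listed, and all 6 were lower in SCI, 5 of them at least 2-fold. MYH1, MYH2 and MYH4 are among the 6 but count as 1 measurement, so these counts overstate the agreement. For this and the following role groups, the shares over all symbols were 56.4% lower and 12.1% at least 2-fold lower. The genes were chosen with this contrast known, so such counts only describe each group. MYL1, the essential light chain of fast fibers, was the most abundant, with 70.6 FPKM in No-SCI and 4.94 FPKM in SCI, a log2 ratio of −3.84. MYL3, the essential light chain of slow fibers and of the ventricle, was at 12.3 and 1.55 FPKM (log2 ratio −2.98). MYLPF, the regulatory light chain of fast fibers, was at 7.62 and 2.01 FPKM (log2 ratio −1.92). All 3 light chains thus stood well above the heavy chains in No-SCI and were under 5 FPKM in SCI. The heavy chains MYH1, MYH2 and MYH4, which are those of adult fast fibers, had log2 ratios of −1.20, −1.20 and −0.77 as deposited. With 1 subtracted all 3 had the same log2 ratio of −3.24, a 9.42-fold lower value in SCI, which places them between MYLPF (−2.71) and MYL1 (−4.14). MYL3 was then lower than MYL1, at −4.35. The slow heavy chain MYH7 has no row.

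Among the thin filament genes, 7 of 8 are listed, all 7 were lower in SCI and 6 of them at least 2-fold. TNNT3, the fast form of the troponin subunit that binds tropomyosin, was the most abundant of all 27 genes in No-SCI, at 180 FPKM (percentile 91.0 of all symbols), and was at 14.1 FPKM in SCI (percentile 47.4). That is a 12.8-fold lower value. ACTA1, skeletal muscle actin, was at 60.8 and 4.48 FPKM, a 13.6-fold lower value. The inhibitory subunits did not differ alike. TNNI1, the slow form, was at 32.9 FPKM in No-SCI and 3.50 FPKM in SCI (9.39-fold lower), and TNNI2, the fast form, was at 11.5 and 2.71 FPKM (4.24-fold lower). The calcium-binding subunits were closer to each other, TNNC2, the fast form, at 34.7 and 12.8 FPKM (2.71-fold lower) and TNNC1, the form of slow fibers and heart, at 21.8 and 8.80 FPKM (2.48-fold lower). TNNT1, the slow troponin T, was at 6.81 and 3.77 FPKM and was the only listed thin filament gene less than 2-fold lower. After subtracting 1 it was 2.10-fold lower. As proteins the subunits of the troponin complex work in equal numbers. The RNA values here are of fast and slow forms of each subunit, which need not match, and their log2 ratios ran from −0.85 to −3.68. On the rat reference (GRCr8) TNNI2 overlaps CTSD, listed at 74.1 FPKM in No-SCI and 58.8 FPKM in SCI, and other genes. The values were made on another assembly, rn6. For this and the overlaps given below, sharing of reads was not tested.

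**Figure D2:**
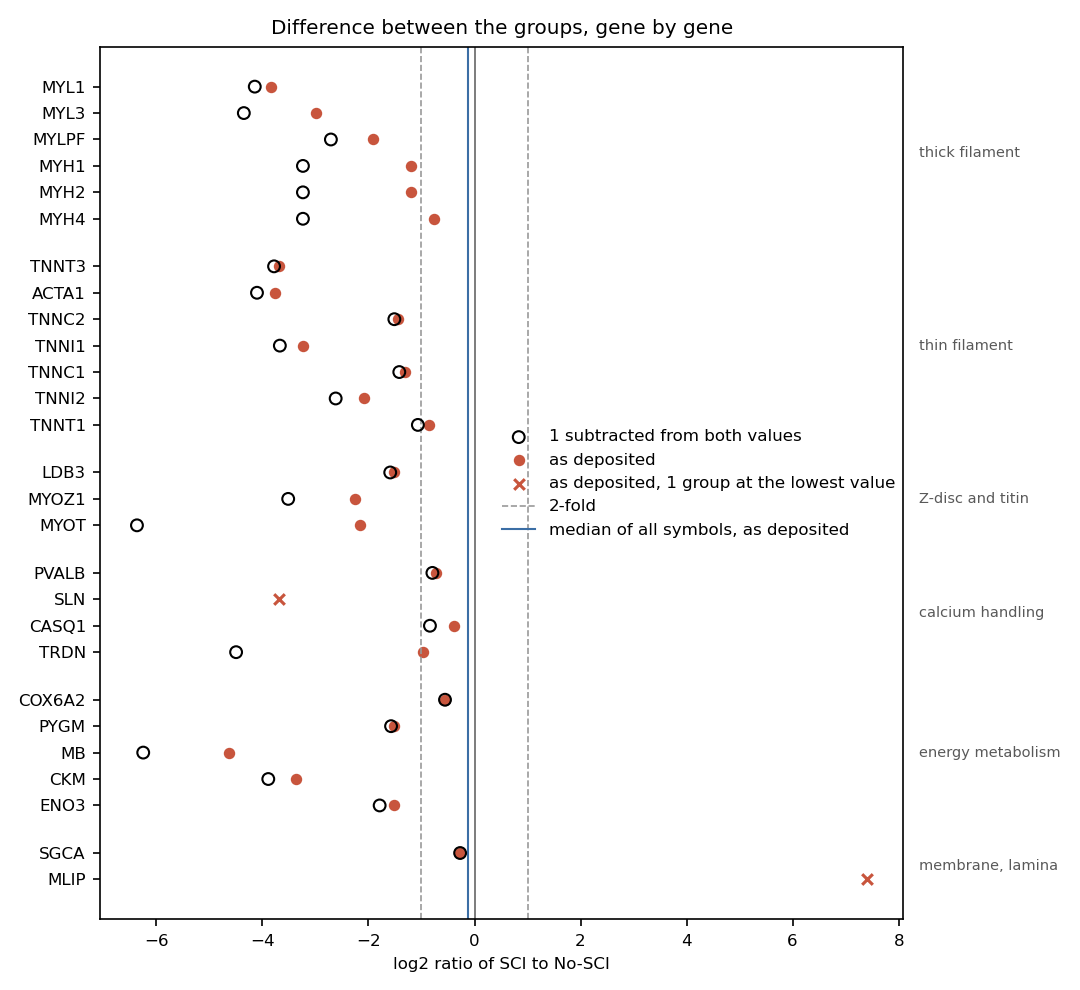
Log2 ratio of SCI to No-SCI for the 27 listed genes as deposited (filled) and after 1 was subtracted from both values (open), by role, with the 2-fold lines and the median of all symbols (−0.12). Crosses mark SLN and MLIP, for which 1 group is at the lowest value of the table, so that the point depends on that value. The open circles lie farther left for low genes such as MYOT (−2.17 and −6.37) and coincide for abundant ones such as COX6A2 (−0.55 and −0.56).

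The Z-disc anchors thin filaments of neighboring sarcomeres, and titin spans from it to the middle of the sarcomere. Of the 8 genes in this group only LDB3, MYOZ1 and MYOT are listed, while titin, both sarcomeric alpha-actinins, telethonin (TCAP) and XIRP2 have no row. LDB3, a PDZ and LIM domain protein that binds alpha-actinin, was at 38.8 FPKM in No-SCI and 13.6 FPKM in SCI (log2 ratio −1.52). MYOZ1, a calcineurin-binding Z-disc protein enriched in fast fibers, was at 7.43 and 1.56 FPKM (log2 ratio −2.25, or −3.51 after subtracting 1). MYOT, the gene of myotilin, was at 4.69 and 1.04 FPKM (log2 ratio −2.17, or −6.37 after subtracting 1). All 3 were thus at least 2-fold lower, and the SCI values of MYOZ1 and MYOT lay close to 1, the lowest value listed.

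For calcium handling 4 of 6 genes are listed, and all 4 were lower in SCI, 1 of them at least 2-fold. SLN, sarcolipin, a small inhibitor of the calcium pump, was at 12.9 FPKM in No-SCI and at exactly 1 in SCI, the lowest value of the table, which allows no fold. TRDN, triadin, which couples calsequestrin to the release channel, was at 2.04 and 1.05 FPKM. Its log2 ratio was −0.96 as deposited and −4.50 after subtracting 1. CASQ1, the calcium-storing calsequestrin of fast fibers, was at 2.12 and 1.63 FPKM (log2 ratio −0.38, or −0.84 after subtracting 1). PVALB, parvalbumin, is a calcium buffer of fast fibers and is also made by a class of neurons. It was at 14.8 FPKM in No-SCI and 8.95 FPKM in SCI, a log2 ratio of −0.72 that moved little, to −0.79, when 1 was subtracted. CASQ1 and PVALB were thus less than 2-fold lower on both scales. The release channel RYR1 and the fast calcium pump ATP2A1 have no row.

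All 5 energy metabolism genes are listed, and 4 of them were at least 2-fold lower in SCI. MB, myoglobin, which stores oxygen, was at 36.5 FPKM in No-SCI and 1.47 FPKM in SCI, and its log2 ratio of −4.64 was the lowest of any symbol in the table as deposited. After subtracting 1 it was −6.25. It stood at percentile 67.2 of all symbols in No-SCI and at percentile 2.19 in SCI. CKM, the muscle creatine kinase, was at 31.6 and 3.07 FPKM, a 10.3-fold lower value. These differences were much greater than those of the other 3 genes. PYGM, muscle glycogen phosphorylase, which astrocytes also make, was at 52.5 and 18.3 FPKM (log2 ratio −1.52). ENO3, the muscle enolase, was at 11.7 and 4.10 FPKM (log2 ratio −1.51), and it overlaps SPAG7, at 55.7 FPKM in No-SCI and 74.8 FPKM in SCI, on the rat reference. COX6A2, the heart and muscle form of a cytochrome c oxidase subunit, was at 105 and 71.9 FPKM (log2 ratio −0.55). COX6A2 was thus at percentile 85.5 of all symbols in No-SCI and 80.7 in SCI, and had the smallest difference of the 5.

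SGCA and MLIP are the listed genes of the membrane and nuclear lamina, and only MLIP stood apart from the rest. SGCA, alpha-sarcoglycan of the dystrophin complex, was at 107 FPKM in No-SCI and 88.8 FPKM in SCI, and its log2 ratio of −0.27 was the closest to 0 of all 27 genes. It overlaps COL1A1 (1.87 and 5.25 FPKM) and HILS1 on the rat reference. MLIP encodes a lamin-interacting protein found in striated muscle and heart. MLIP is listed at exactly 1 in No-SCI and at 169 FPKM in SCI, percentile 90.6 of all symbols, so no fold is given. It had the highest SCI value of the 27 genes. As deposited, its log2 ratio was also the highest of any symbol, but it depends on a No-SCI value at the lowest of the table. No other gene of the set was higher in SCI. Without MLIP the median log2 ratio of the remaining 26 genes was −1.52.

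Fast and slow fiber genes were both lower in SCI. Of 13 genes of fast fibers 10 are listed, all lower, 7 of them at least 2-fold, with a median log2 ratio of −1.32. Of 7 genes of slow fibers 4 are listed, all lower, 3 of them at least 2-fold, with a median of −2.15. Over all symbols, 56.4% were lower and 12.1% at least 2-fold lower, and both lists were chosen with this contrast known. The difference of the medians, 0.83 on the log2 scale as deposited, had the opposite sign, −0.43, when 1 was subtracted. The fast list holds the 3 heavy chains, which count as 1 measurement and whose log2 ratios differ most between these scales. With a mean of at least 5 FPKM required, the difference was 0.0621. No order of fast and slow genes therefore holds over these settings.

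Set side by side within a family, and per length as FPKM allows, the isoforms did not all differ in the same direction. Of 12 pairs 6 have both members listed, and the fast isoform had the lower log2 ratio in 5 as deposited. The ratio of TNNT3 to TNNT1 was 26.5 in No-SCI and 3.73 in SCI. For troponin I the order was the other way, with a TNNI2 to TNNI1 ratio of 0.35 in No-SCI and 0.773 in SCI. TNNC2 and TNNC1 had nearly the same ratio in both groups, 1.59 in No-SCI and 1.46 in SCI. These 3 pairs belong to the same complex, and the fast share was thus lower in SCI by troponin T, higher by troponin I and nearly the same by troponin C. The ratio of MYL1 to MYL3 was 5.76 in No-SCI and 3.18 in SCI as deposited, but 6.18 and 7.13 after subtracting 1, so its direction depends on the scale. MYOZ1 to MYOZ2 was 2.09 and 0.657, and CASQ1 to CASQ2 was 0.987 and 0.785, the latter with all 4 values under 2.2 FPKM. MYOZ1, MYOZ2 and CASQ2 were not in the fast and slow lists above, so pairs and list medians rest on partly different genes.

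**Figure D3:**
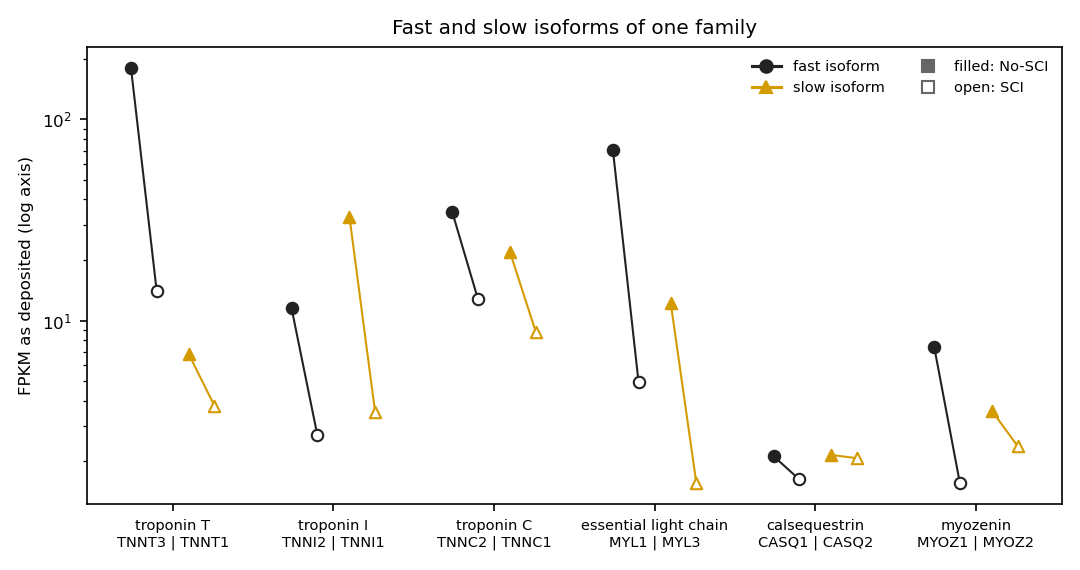
FPKM as deposited (log axis) of the 6 pairs of fast (circles) and slow (triangles) isoforms with both genes listed, No-SCI filled and SCI open, 1 authors' group value each. The line of TNNT3 is steeper than that of TNNT1, that of TNNI2 is less steep than that of TNNI1, and those of TNNC2 and TNNC1 run almost in parallel.

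Many of the muscle genes have a counterpart that other tissues use for the same task, and the counterparts mostly lay near the median of all symbols. Of 23 pairs 15 have both genes listed, with 9 muscle genes and 15 counterparts among them. The muscle gene had the lower log2 ratio in 14 of the 15 pairs, and the medians were −1.52 for the muscle genes and −0.09 for the counterparts. The muscle genes were chosen with this contrast known, so their lower ratios describe that choice and are not evidence. Some of the 9 muscle genes enter several pairs, so the 15 pairs are not separate observations. For actin, ACTA1 had a log2 ratio of −3.76, while the cytoplasmic actins ACTB (0.24) and ACTG1 (0.32) and smooth muscle actin ACTA2 (0.19) were slightly higher in SCI. For light chains, MYL1 was at −3.84 and the non-muscle MYL6 at 0.77. Creatine kinase B, the brain form, was at 1783 FPKM in No-SCI and 1070 FPKM in SCI (log2 ratio −0.74), against −3.37 for CKM. It was 56.4 times as abundant as CKM in No-SCI and 349 times in SCI.

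The enolases ENO1 and ENO2, the second of which is the neuronal form, had log2 ratios of −0.09 and 0.21, against −1.51 for ENO3. COX6A1, the form of most tissues, was at 0.37, against −0.55 for COX6A2. The non-muscle heavy chains MYH9 and MYH10 were at −0.16 and −0.36. Exceptions were glycogen phosphorylase B, the brain form, whose log2 ratio of −1.52 equalled that of PYGM as deposited (−2.11 against −1.57 after subtracting 1), and the sarcoglycans, with −0.27 for SGCA and −0.21 for SGCE. PYGL, the liver phosphorylase, was at −0.20. For globins, MB at −4.64 stood beside cytoglobin (CYGB) at 1.18 and neuroglobin (NGB) at −1.33. Where only the counterpart is listed, its log2 ratio was 0.06 for ACTN1, −0.06 for ACTN4, −0.59 for the calcium pump ATP2A2, 0.84 for CAPN1 and −0.23 for CAPN2. RYR2, RYR3 and OCM have no row.

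**Figure D4:**
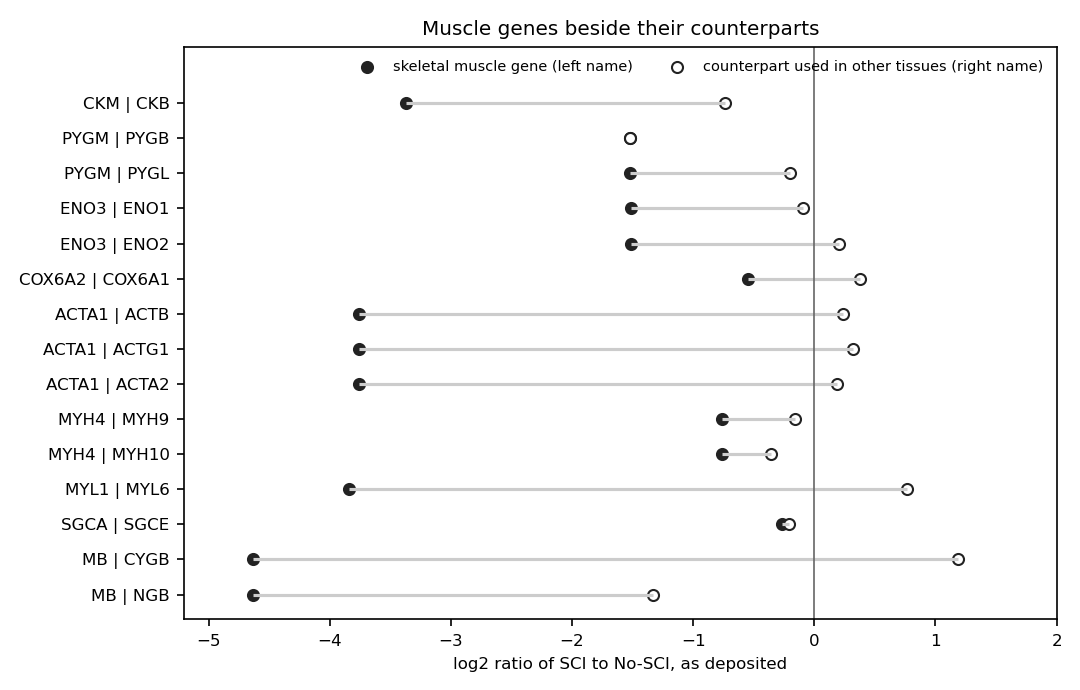
Log2 ratio of SCI to No-SCI, as deposited, for 15 pairs of a skeletal muscle gene (filled) and a counterpart of other tissues (open). The filled point lies to the left in 14 pairs, farthest for MB and CYGB (−4.64 and 1.18), and the points coincide for PYGM and PYGB.

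A further list of 82 genes of muscle structure, membrane and metabolism outside the set has 51 with a row. Of these 39 were lower (56.4% of all symbols were) and 12 higher in SCI, 17 (33.3%) at least 2-fold lower, against 12.1% of all symbols, and 3 (5.88%) at least 2-fold higher, against 7.93%. Its median log2 ratio was −0.51. The lowest ratios were those of ANKRD23 (8.23 FPKM in No-SCI and 1.20 in SCI, log2 ratio −2.77, or −5.15 after subtracting 1), a titin-binding ankyrin repeat protein, and MYBPH (21.7 and 3.78 FPKM, log2 ratio −2.52), a myosin-binding protein. PGAM2, the muscle phosphoglycerate mutase, was at 5.75 and 1.29 FPKM (log2 ratio −2.16, or −4.05 after subtracting 1), and DMD, the gene of dystrophin, at 56.6 and 15.3 FPKM. PPP1R27 (4.94 FPKM) and SMPX (4.51 FPKM) were listed at exactly 1 in SCI. The most abundant in No-SCI were TPM3 (log2 ratio 0.16), CRYAB (1.15), TPM1 (0.85), HSPB8 (0.11), HSPB6 (−0.56) and PDLIM5 (−0.24), which are tropomyosins, small heat shock proteins and a Z-disc and cytoskeletal adaptor. CRYAB, alpha-B-crystallin, was at 3394 FPKM in No-SCI and 7532 FPKM in SCI. The highest ratios were those of SGCD (1.33), CRYAB, TPM2 (1.04), TPM1, JPH2 (0.84) and CSRP3 (0.71).

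Of 20 myogenic regulators 10 are listed, 8 of them lower in SCI and 4 at least 2-fold lower, with a median log2 ratio of −0.81. The same shares over all symbols were 56.4% and 12.1%. MYOG, myogenin, was at 3.07 FPKM in No-SCI and 1.04 FPKM in SCI (log2 ratio −1.56, or −5.81 after subtracting 1), MYF6 at 2.80 and 1.07 FPKM, and MYOD1 at 2.65 and 1.57 FPKM. PAX7, the satellite cell factor, and MYF5 have no row. The abundant members were MEF2C (112 and 61.3 FPKM), MEF2A (69.9 and 87.9 FPKM) and MEF2D (18.9 and 16.3 FPKM), which neurons and other cells also use.

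Markers of other tissues lay on both sides of 0, and their values stand here beside those of the set. Over all 12758 symbols, 7190 were lower and 5568 higher in SCI, with 12.1% at least 2-fold lower and 7.93% at least 2-fold higher. Of 10 cardiac markers 5 are listed, with 1 lower and 4 higher in SCI, and their summed level was 66.4 FPKM in No-SCI and 365 FPKM in SCI, most of it TNNT2, cardiac troponin T (57.2 and 353 FPKM). MYH6, TNNI3 and MYBPC3, which define the heart, have no row. Of 10 smooth muscle markers 9 are listed, none 2-fold apart, with a sum of 649 and 781 FPKM and a median log2 ratio of 0.02. The most abundant were TAGLN (log2 ratio 0.43), MYL9 (0.13) and MYLK (−0.77). Adipocyte markers (4 of 8 listed) summed to 59.8 and 62.2 FPKM, most of it FABP4 (53.5 and 51.6 FPKM), with CFD and ADIPOQ far less abundant. Bone and cartilage markers (4 of 10 listed) summed to 11.9 and 14.7 FPKM, with ALPL at 3.34 and 8.01 FPKM.

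Meningeal fibroblast markers went opposite to muscle, with 11 of 12 listed and all 11 higher in SCI. Of these, 10 (90.9%) were at least 2-fold higher, against 7.93% of all symbols. Over all 12758 symbols, 5568 were higher. This list was also chosen with earlier results of these data known. Its summed level was 76.1 FPKM in No-SCI and 934 FPKM in SCI. At least 2-fold higher with a mean of at least 5 FPKM were OSR1, IGFBP6, CRABP2, ALDH1A2, DCN, SLC6A13, COL3A1 and LUM, with log2 ratios from 1.76 for LUM to 5.43 for OSR1. Schwann cell markers (8 of 8 listed) summed to 145 and 211 FPKM, with 6 of the 8 higher in SCI. The labelled tissue was visible in its own markers. Of 10 oligodendrocyte markers 9 are listed, with a sum of 88237 FPKM in No-SCI and 48262 FPKM in SCI. Most of it was MOBP (44200 and 27648 FPKM) and BCAS1 (36068.5 and 18311 FPKM), both less than 2-fold lower. As deposited, the median log2 ratio of the 9 markers was −1.53, beside −1.52 for the muscle genes. After subtracting 1 these medians were −1.62 and −3.24, so they were close on 1 scale only. At least 4-fold lower as deposited were 0 of the 9 markers and 11 of the muscle genes. Among the 9 markers, ERMN, MAG, CNP, MAL and MOG were at least 2-fold lower. Of 10 neuron markers 8 are listed, with a sum of 1583 and 1596 FPKM, most of it GAP43 (1275 and 1406 FPKM), and a median log2 ratio of −0.38, and NEFL and SYT1 were at least 2-fold lower. MBP and SNAP25 have no row. The part of any of these tissues in the values of the muscle genes was not tested.

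**Figure D5:**
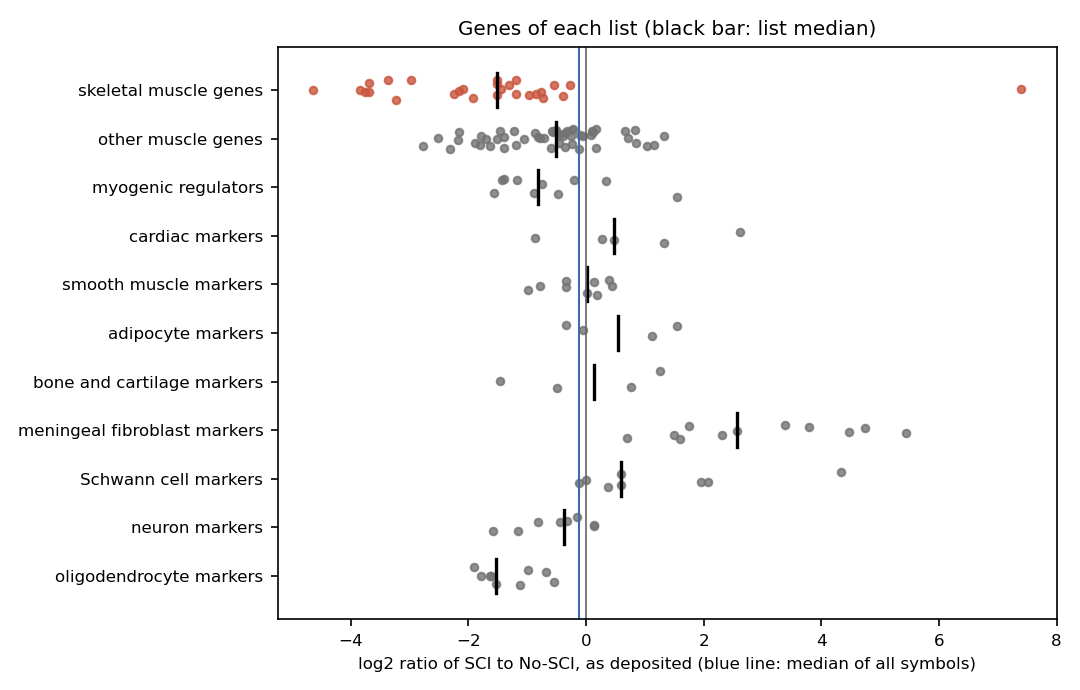
Log2 ratio of SCI to No-SCI, as deposited, of each listed gene (points) by list, with the list median (black bar) and the median of all symbols (blue line, −0.12). On this scale the skeletal muscle genes (median −1.52) have nearly the median of the oligodendrocyte markers (−1.53). After subtracting 1, which is not drawn, the median was −3.24 for the muscle genes and −1.62 for the oligodendrocyte markers. As deposited, meningeal fibroblast markers lie to the right (2.56), and smooth muscle markers lie around 0 (0.02).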

How the data were processed

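RNA of the protease supernatant was made into strand-specific libraries after removal of ribosomal RNA. Per the labels and the methods of the study, the authors sampled all libraries down to the smallest, aligned reads to rn6 with STAR 2.5.4b and ran Cuffdiff 1.3.0 with normalization to the upper quartile. In the deposited table each entry has 1 FPKM estimate per group, made by the authors, with 0 measurement columns left without a group. The deposited table also holds the authors' fold changes, p-values and q-values, which were not used. The study states 50000000 reads per sample before this step. The number kept after it, and whether counting used strand, are not given in the sources used here.

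Log2 ratios of SCI to No-SCI were computed without a pseudocount. Where a symbol had 2 entries (13 symbols), the more abundant one was kept. A difference of at least 2-fold was counted, and no test was run. The 40 genes, the lists and the pairs were chosen with earlier results of these data known. Named are all genes of the set and of the pairs, the 6 most abundant, 6 lowest and 6 highest of the further muscle genes, and of each other list the genes at least 2-fold apart with a mean of at least 5 FPKM, or else the 3 most abundant. Some genes of these other lists are not reported here. MYOG, MYF6, MYOD1, GAP43, MOBP, BCAS1, genes named as having no row and genes overlapping a gene of the set were named outside this rule, with values known. All 40 genes matched the GRCr8 reference, 1 by a synonym (MYLPF). Alternatives were pseudocounts of 1 and 0.1, 3 scalings, a minimum mean of 5 FPKM, summed entries, means for medians, folds of 1.5 and 4, and 1 subtracted from every value. The values were already known when leaving out MYH2 and MYH4 was added. Steps for ratios, centring and motifs were tested on data made with known answers. Python 3.11.15, numpy 2.4.6, pandas 2.3.3 and matplotlib 3.10.9 were used.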

Additional observations from a re-analysis of the deposited data

How the results depend on the processing

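No paired analysis was possible because the table holds 1 value per group and none per library, and leaving out a library was not possible for the same reason. Each of the 26 genes lower in SCI was lower, and MLIP higher, under every pseudocount, scaling and subtraction that gave it a value. A count, or the fold behind a log2 value, was taken to have moved at a change of 1.5-fold or more. With 1 subtracted and entries at 1 left out, the median log2 ratio of the set was −3.24, that of the fast genes −2.97 and the fast minus slow difference −0.43, the opposite sign, and 0 genes were at least 2-fold higher, because MLIP drops out. With a mean of at least 5 FPKM the fast median was −2.09, the fast minus slow difference 0.0621, and 8 of the further muscle genes were at least 2-fold lower. A fold of 4 left 11 genes of the set and 5 further muscle genes. The fast minus slow difference was 0.37 with means in place of medians and 0.47 without MYH2 and MYH4. The other alternatives stayed within that limit, and centring the median of all symbols shifts each log2 ratio up by 0.12. The reads behind a value and the spread between animals cannot be had from group values, so no difference here has a replicate check.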
